A study of Mus musculus with 12 samples.

Results

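RNA of 9 hematopoietic cytokine receptor genes was examined in 100-cell libraries of leukemic stem and progenitor cells from a mouse model of chronic myeloid leukemia (CML). The genes were Csf2rb, Csf2rb2, Csf2ra, Il3ra, Csf3r, Csf1r, Epor, Il6st and Il6ra. They were taken by name from the 46103 genes of the deposited RPKM files (reads per kilobase of gene model, scaled to the library's read total), and all 9 were listed. None of them had a numbered copy that needed summing. RNA of 8 of the 9 reached 1 RPKM in at least 3 libraries and entered the test of 10072 genes, while Epor did not.

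Donor bone marrow came from 5FU-treated G0M mice, in which a Vav1-Cre driven Rosa26 allele expresses mVenus fused to a mutant p27 and marks cells in the G0 phase. All donor cells were cultured overnight with cytokines that included IL-6 and SCF, transduced with human BCR-ABL1 and a GFP marker, and transplanted with unmanipulated marrow into lethally irradiated C57BL/6 recipients. BCR-ABL1+CD27+ KSL cells (c-Kit-positive, Sca1-positive, lineage-negative) were then sorted from bone marrow and spleen. G0M+ cells of vehicle-treated mice are called DP, and the G0M- cells of vehicle-treated mice SP. IMDP and IMSP are the corresponding G0M+ and G0M- cells under imatinib, which blocks the kinase activity of BCR-ABL1 and was gavaged daily at 40 mg/kg from day 10 after transplantation. Each of the 4 groups had 3 libraries. The mice were females aged 6 to 12 weeks. Whether a library pooled several mice is not given in the sources used here, so p-values measure the spread between libraries, which may be technical. The lineage cocktail held antibodies to CD11b and Gr-1, which remove mature monocytes and granulocytes. The authors described G0M+ cells without CD27 as mast-like, a fraction outside the CD27+ sort.

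These receptors convert a circulating or local growth factor into a JAK-STAT, RAS and PI3K signal. The receptors for IL-3 and GM-CSF pair a ligand-specific alpha subunit (Il3ra, Csf2ra) with a beta subunit that carries the signal. Csf2rb is the beta subunit common to IL-3, GM-CSF and IL-5, and Csf2rb2 is a second mouse beta subunit that serves IL-3. Csf3r and Epor are homodimeric receptors of G-CSF and erythropoietin, and Csf1r is a receptor tyrosine kinase for CSF1 and IL-34. Il6ra binds IL-6, and Il6st (gp130) is the shared signalling subunit of the IL-6 family. BCR-ABL1 activates many of the same signal proteins without a ligand.

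The pair of beta subunit genes is shown first because the largest difference between populations was in Csf2rb2 and because the 2 genes are close copies. On GRCm38 (GENCODE M21), Csf2rb2 lies on the minus strand of chromosome 15 from 78282507 to 78305721, and Csf2rb on the plus strand from 78325752 to 78353847. The genes stand head to head, 20030 bases apart. Their coding sequences (2688 bases in Csf2rb, 2634 in Csf2rb2) were identical at 95.2% of 2628 aligned bases, and the encoded proteins of 896 and 878 residues at 92.0% of aligned residues. The longest stretch without a difference was 242 bases. Over the whole transcripts 90.8% of aligned bases were identical. The read length, and how reads that match both genes were counted, are not given in the sources used here, so a part of the reads on each gene could belong to the other. The following coding stretches, each within 1 exon, cover the codons of the WSXWS motif that marks the extracellular part of class I cytokine receptors, in capitals, at chr15:78345492-78345554 for Csf2rb and at chr15:78287892-78287954 for Csf2rb2.
Csf2rb: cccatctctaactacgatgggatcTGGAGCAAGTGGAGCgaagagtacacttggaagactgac
Csf2rb2: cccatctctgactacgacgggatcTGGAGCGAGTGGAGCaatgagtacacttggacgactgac

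Promoter sequence from RefSeq (GRCm38) was found for 7 of the 9 genes, not for Csf2rb and Csf1r. The 250 bases before the start site are printed for Csf2rb2 (chr15:78305722-78305971, minus strand) and Il6ra (chr3:89913197-89913446, minus strand), the members called higher and, with neighbouring libraries as a block, lower in G0M+ cells. Capitals mark matches to AGATAA, the core read by GATA factors, to GAGGAA, a core read by ETS factors such as PU.1, and to TTCNNNGAA, the spaced palindrome read by STAT5, all on both strands.
Csf2rb2: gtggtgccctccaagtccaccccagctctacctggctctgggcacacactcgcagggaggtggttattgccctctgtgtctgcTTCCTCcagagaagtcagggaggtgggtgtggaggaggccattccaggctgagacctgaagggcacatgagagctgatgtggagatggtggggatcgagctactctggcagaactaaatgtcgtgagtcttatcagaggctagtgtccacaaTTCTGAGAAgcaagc
Il6ra: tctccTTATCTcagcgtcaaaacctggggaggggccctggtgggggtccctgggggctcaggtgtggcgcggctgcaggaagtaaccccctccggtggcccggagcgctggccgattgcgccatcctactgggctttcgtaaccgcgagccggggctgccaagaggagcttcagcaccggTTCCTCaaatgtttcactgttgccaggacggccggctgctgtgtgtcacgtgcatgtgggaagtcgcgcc
Among all 32851 promoters of this length, AGATAA was found in 9.99%, GAGGAA in 23.3% and TTCNNNGAA in 7.02%. Of the 7 receptor promoters, Csf2rb2 alone held a TTCNNNGAA match. GAGGAA matched in Csf2rb2, Il6ra, Csf2ra and Csf3r, and AGATAA in Il6ra and Epor. The matches are letters only and no binding was measured.

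Before the comparisons, 3 features of the libraries bear on the values. Library totals lay between 11.4 and 20.6 M reads, and 1 read per kb was worth 0.0486 to 0.0880 RPKM. Library numbers in the labels run from 1 to 6 for imatinib and from 7 to 12 for vehicle, so treatment and library series cannot be told apart. IMSP replicate 3 held the highest sum of 8 monocyte markers (270 RPKM against 8.47 to 139 in the other 11 libraries), and DP replicate 1 the highest sum of 10 mast cell and basophil markers (348 RPKM against 19.2 to 210). Values without IMSP replicate 3 are given beside the results for Csf2rb2, Csf2rb, Csf1r, Il6st and Il6ra, in which it was the highest or second-highest library. It was also the highest library for Il3ra (1.43 RPKM) and the second-highest for Csf2ra (1.70 RPKM), for which such values are not given. Kit and Cd27, on which the cells were sorted, were at 16.8 RPKM or more and 12.2 RPKM or more in every library. In bulk libraries, fewer cells that carry a receptor and less RNA per cell cannot be told apart.

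Averaged over the 12 libraries, Csf2rb RNA had the highest level (18.2 RPKM), followed by Csf3r (10.5), Csf1r (5.89), Il6st (4.98), Csf2rb2 (3.40), Il6ra (2.28), Csf2ra (1.34), Il3ra (0.963) and Epor (0.532). This order depends on the gene lengths behind the RPKM, which differ from the GENCODE M21 exon unions. For Csf2ra the length was 9466 bases against an exon union of 2871. On the exon unions Csf3r (15.9) stood above Csf2rb (12.3), followed by Csf2ra (4.41), Csf1r (4.17), Csf2rb2 (3.40), Il6st (2.44), Il3ra (0.924), Il6ra (0.891) and Epor (0.747). Both alpha subunits stood below Csf2rb on either set of lengths. Differences between libraries in 1 gene do not depend on its length. Csf1r ranged 57.0-fold between its lowest and highest library and Csf2rb2 29.8-fold, against 2.38-fold for Il3ra and 3.22-fold for Csf2ra. Because most ranges overlapped, the order of neighbours from Csf1r to Il6ra was not the same in each library, as the plot of RPKM by library shows.

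**Figure D1:**
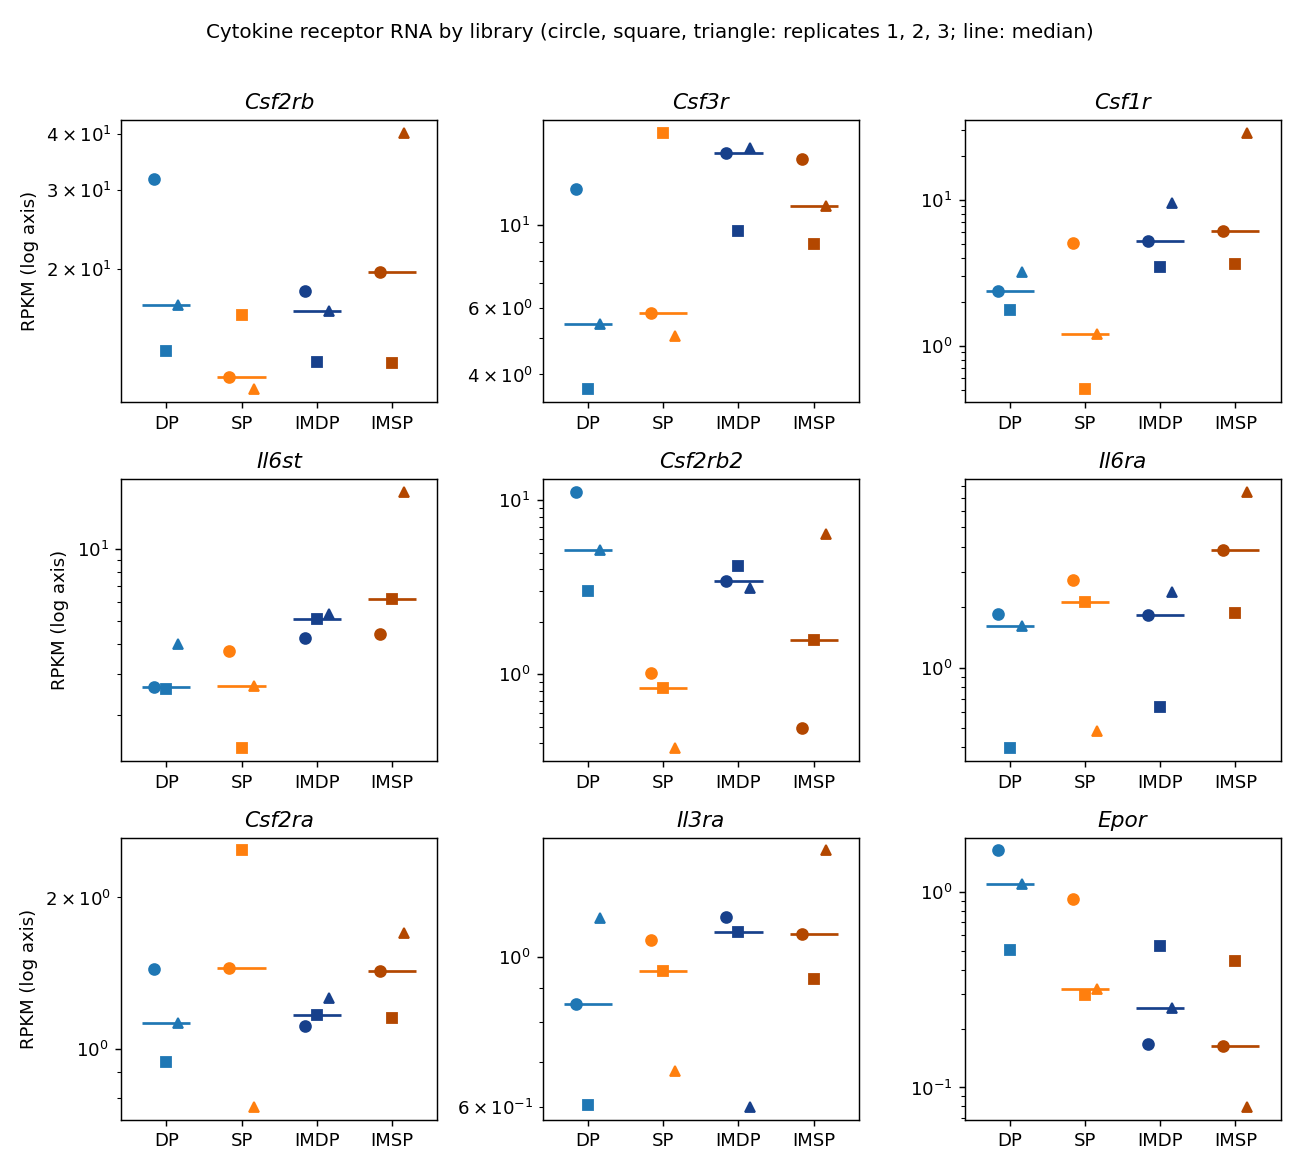
RPKM of the 9 receptor genes in each library, on log axes that differ between panels. The x axis gives the groups, each point is 1 library (circle, square and triangle for replicates 1, 2 and 3), and the line is the group median. Csf2rb2 is higher in all 3 DP libraries than in all 3 SP libraries, and Il6st is higher in all 6 imatinib libraries than in all 6 vehicle libraries.

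Csf2rb2 was the 1 member called between the populations in the test without a block of paired libraries. Its RNA was at 11.2, 2.99 and 5.18 RPKM in DP libraries 1 to 3 and at 1.02, 0.833 and 0.376 RPKM in SP libraries, so the groups did not overlap. In imatinib-treated mice it was at 3.45, 4.18 and 3.13 RPKM in IMDP and at 0.492, 1.58 and 6.37 RPKM in IMSP. Only IMSP replicate 3 lay above the IMDP libraries. The values rest on 24 to 832 reads per library.

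Averaged over treatments, Csf2rb2 was higher in G0M+ cells by a log2 fold change of 1.91 (SE 0.50, 95% interval 0.82 to 3.01, adjusted p = 0.0177, limma). The median of all tested genes in this comparison was -0.13, and relative to it the difference was 2.05. Csf2rb2 was the only called member of the 8 tested, in a comparison in which 26.3% of all tested genes were called (536 higher and 2112 lower in G0M+ cells). The call was kept in 25 of 25 alternative settings that kept the 2 beta genes apart, with adjusted p from 0.000397 to 0.0419.

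Within vehicle-treated mice the log2 fold change of Csf2rb2 in DP against SP was 2.85 (SE 0.71), with an adjusted p of 0.0670 that missed the threshold. Here limma called 0 of 8 members and 2.26% of all genes, 1 member (Csf2rb2) had an unadjusted p under 0.05, and limma-voom on the recovered reads gave the same 2 counts. Non-overlapping DP and SP values, as in Csf2rb2, were found in 22.4% of tested genes. Within imatinib-treated mice the log2 fold change in IMDP against IMSP was 0.98 (SE 0.71, adjusted p = 0.324). No member was called there and none had an unadjusted p under 0.05, by limma or limma-voom, while 25.6% of all genes were called. The IMDP and IMSP libraries overlapped in every member and did not in 39% of tested genes. Without IMSP replicate 3 this difference was 1.88 (adjusted p = 0.0390), and DP against SP passed the threshold at an unchanged 2.85 (adjusted p = 0.0161). Without both IMSP replicate 3 and DP replicate 1 the values were 2.35 in vehicle (adjusted p = 0.0314) and 1.88 in imatinib (adjusted p = 0.0233). The difference between the treatments' effects was -1.87 (SE 1.00, adjusted p = 0.554). This interaction called 0% of all genes by limma (937 at an unadjusted p under 0.05) and 0 by limma-voom (960 at an unadjusted p under 0.05), and no member had an unadjusted p under 0.05. Imatinib against vehicle gave -0.64 for Csf2rb2 in G0M+ cells (adjusted p = 0.647) and 1.23 in G0M- cells (adjusted p = 0.677).

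The common beta subunit Csf2rb was at 31.8, 13.2 and 16.7 RPKM in DP, 11.6, 15.9 and 10.8 in SP, 17.9, 12.4 and 16.2 in IMDP, and 19.7, 12.4 and 40.2 in IMSP libraries. All group ranges overlapped, and the population average was 0.06 (95% interval -0.55 to 0.67, adjusted p = 0.890), or 0.29 without IMSP replicate 3 (adjusted p = 0.382). In DP against SP it was 0.60 (adjusted p = 0.540), which was called in 1 alternative setting, the block of neighbouring libraries without the pair of IMSP replicate 3 (0.60, adjusted p = 0.0430). The highest libraries, IMSP replicate 3 and DP replicate 1, were also the highest for Csf2rb2. Csf2rb2 was therefore also expressed as a ratio to Csf2rb in the same library, in percent, a comparison chosen after the values were seen. The ratio was 35.2%, 22.8% and 31.0% in DP and 19.2%, 33.6% and 19.3% in IMDP libraries. It was 8.78%, 5.25% and 3.47% in SP and 2.50%, 12.7% and 15.8% in IMSP libraries. The lowest G0M+ library (19.2%) thus lay above the highest G0M- library (15.8%), IMSP replicate 3 included. The mean log2 ratio differed by 1.99, which is given as a description with no test. For the 2 beta genes summed, the population average was 0.29 (adjusted p = 0.472).

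**Figure D2:**
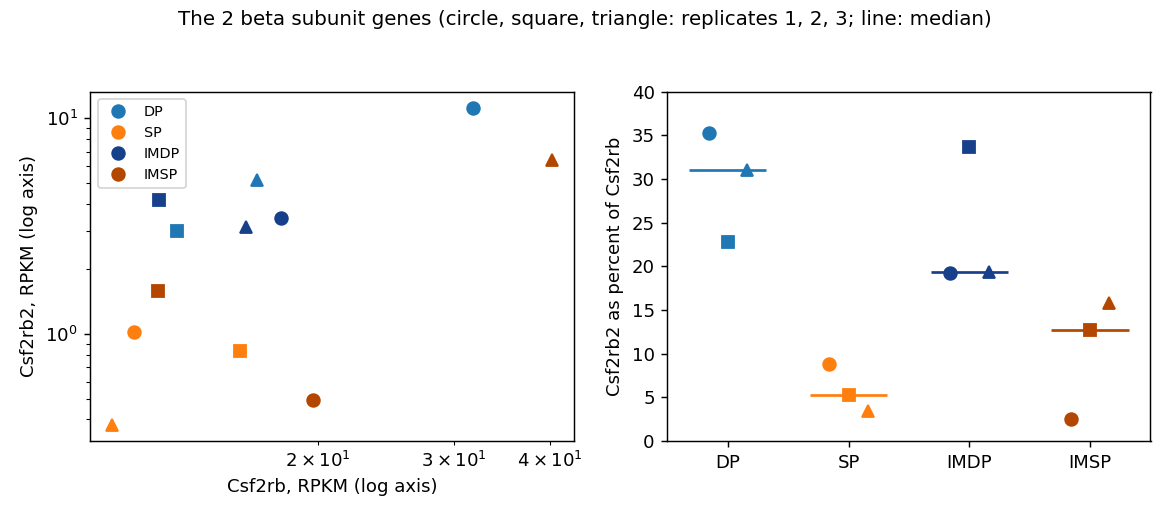
Left, RPKM of Csf2rb2 against RPKM of Csf2rb, both on log axes; right, Csf2rb2 as a percent of Csf2rb in each group, with a line at the median. Each point is 1 library, with the replicate given by its shape. The 6 G0M+ libraries lie between 19.2% and 35.2%, above the 6 G0M- libraries at 2.50% to 15.8%.

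Markers of other cells moved with the populations as well. The mast cell and basophil sum was 94.1 to 348 RPKM in DP and 23.8 to 29.4 RPKM in SP, and 27.2 to 210 RPKM in IMDP and 19.2 to 32.1 RPKM in IMSP. Across 12 libraries its log2 value correlated with that of Csf2rb2 at r = 0.62, as a description. In IMDP replicate 3, with Csf2rb2 at 3.13 RPKM, 6 of the 10 markers were above 0, among them Cpa3 at 8.25, Mcpt8 at 4.14, Hdc at 1.80 and Gata2 at 12.4 RPKM, and Cma1, Mcpt4, Prss34 and Tpsb2 were listed at 0. In IMSP replicate 3, with Csf2rb2 at 6.37 RPKM, the same 6 were above 0 (Cpa3 4.76, Mcpt8 5.72, Hdc 3.13 and Gata2 5.30 RPKM) and the same 4 listed at 0. The macrophage sum (10 markers) was 4.33 to 14.6 RPKM in DP, 2.65 to 5.08 in SP, 12.6 to 15.3 in IMDP and 3.78 to 11.2 in IMSP, and correlated with Csf2rb2 at r = 0.78. C1qa, C1qb, C1qc and Mertk were at 0 in all SP and IMSP libraries. Not all markers of this list went that way. Cd14 was at 0.0932, 0.121 and 0.142 RPKM in IMDP and at 0.240, 0.477 and 1.21 in IMSP libraries. The highest Cd68 was in IMSP replicate 3 (7.14 RPKM). The part of these cells in the Csf2rb2 difference was not tested. The sum of 10 proliferation markers was 41.5 to 105 RPKM in DP and 24.7 to 45.7 in IMDP, against 288 to 311 in SP and 262 to 365 in IMSP.

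The alpha subunits, Csf2ra (chr19:61223957-61228429, minus strand) and Il3ra (chr14:14346275-14356011, plus strand), varied least between libraries. Csf2ra in vehicle-treated mice was at 1.17 ± 0.252 RPKM (SD, n = 3) for DP and 1.57 ± 0.861 for SP, and with imatinib at 1.18 ± 0.0775 for IMDP and 1.43 ± 0.274 for IMSP, with 98 to 398 reads per library. The population average was -0.25 (95% interval -0.79 to 0.28), and that of treatment 0.01 (-0.52 to 0.55). Il3ra was at 0.866 ± 0.267 RPKM for DP and 0.896 ± 0.196 for SP, and with imatinib at 0.943 ± 0.297 for IMDP and 1.15 ± 0.259 for IMSP, from only 26 to 62 reads. Its population average was -0.17 (-0.69 to 0.35) and its treatment average 0.21 (-0.31 to 0.73). In neither gene did any pair of groups separate. These intervals leave room for differences of up to 0.79 on the log2 scale.

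Csf3r (chr4:126024550-126044440, plus strand), the receptor that drives granulocyte production, was at 12.4, 3.65 and 5.45 RPKM in DP and 5.84, 17.5 and 5.05 in SP libraries. With imatinib it was at 15.5, 9.64 and 15.9 RPKM in IMDP and 14.9, 8.89 and 11.2 in IMSP. The vehicle groups each held 1 library above 10 RPKM and 2 below 6, and the imatinib libraries lay between 8.89 and 15.9 RPKM. The log2 fold change in IMDP against DP was 1.08 (SE 0.49, unadjusted p = 0.048, adjusted p = 0.239). No member was called in this comparison, by limma or limma-voom, and only Csf3r had an unadjusted p under 0.05, while 0.367% of all genes were called. Over both populations imatinib gave 0.79 (95% interval 0.04 to 1.54, adjusted p = 0.261), and the population average was -0.06 (-0.81 to 0.69). The sum of 12 neutrophil markers ran from 71.6 RPKM in DP replicate 2 to 2651 RPKM in SP replicate 2 and correlated with Csf3r at r = 0.50 over 12 libraries, as a description. IMDP replicates 1 and 3, at 15.5 and 15.9 RPKM of Csf3r, had neutrophil sums of 210 and 296 RPKM.

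Csf1r RNA, which marks the monocyte and macrophage line, was the most variable. It was at 2.36, 1.75 and 3.22 RPKM in DP and 5.05, 0.504 and 1.20 in SP libraries. With imatinib it was at 5.18, 3.48 and 9.43 RPKM in IMDP and 6.13, 3.65 and 28.7 in IMSP. IMDP lay above DP without overlap, as in 23.6% of tested genes, and IMSP overlapped SP through SP replicate 1. The log2 fold change was 1.19 in IMDP against DP (SE 0.79, adjusted p = 0.423) and 2.46 in IMSP against SP (SE 0.79, unadjusted p = 0.00917, adjusted p = 0.465). Over both populations it was 1.83 (95% interval 0.61 to 3.05, unadjusted p = 0.00688, adjusted p = 0.125). Without IMSP replicate 3 the treatment average was 1.40 (adjusted p = 0.221) and IMSP against SP 1.60 (adjusted p = 0.636). Csf1r overlaps Hmgxb3, a gene on the opposite strand that reached 6.30 RPKM, and the library kit is not stated to keep strand, so reads in shared sequence cannot be told apart.

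Il6st (chr13:112464070-112510086, plus strand), the signalling subunit of the IL-6 family, separated by treatment. It was at 2.62, 2.58 and 4.00 RPKM in DP and 3.74, 1.46 and 2.66 in SP libraries, and at 4.25, 5.10 and 5.34 in IMDP and 4.40, 6.15 and 17.4 in IMSP libraries. All 6 imatinib libraries (4.25 RPKM or more) lay above all 6 vehicle libraries (4.00 RPKM or less), which held for 1.12% of tested genes in either direction and for no other member. The treatment average was 1.16 (SE 0.31, 95% interval 0.48 to 1.84, unadjusted p = 0.00305), and its adjusted p of 0.0916 missed the threshold. In IMSP against SP the value was 1.63 (SE 0.44, unadjusted p = 0.00307, adjusted p = 0.418), and in IMDP against DP 0.68 (SE 0.44, adjusted p = 0.411). Groups that did not overlap, as here in IMSP against SP, were found in 13.8% of tested genes. Without IMSP replicate 3 the treatment average was 0.87 (adjusted p = 0.123) and IMSP against SP 1.06 (adjusted p = 0.564). The 7 tested monocyte markers had a median log2 fold change of 1.16 in the treatment average and 1.97 in IMSP against SP, with 0 called. The part of monocyte-lineage cells in the Il6st and Csf1r differences was not tested.

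No member was called for imatinib in any comparison. In IMSP against SP, limma called 0% of all genes (845 at an unadjusted p under 0.05) and limma-voom 0 (873 at an unadjusted p under 0.05), and 2 members, Csf1r and Il6st, had an unadjusted p under 0.05 by each tool. In the treatment average 0.854% of all genes were called, and 3 members (Csf1r, Il6st and Csf3r) had an unadjusted p under 0.05 by limma, a count that limma-voom also gave with 0 calls. The fitted treatment averages of the 8 tested members ran from 0.01 in Csf2ra, which was below 0 in 6 of 24 alternative settings, to 1.83 in Csf1r. The ninth member, Epor, passed 1 RPKM in 2 vehicle libraries and no imatinib library and so missed the filter, and its value in a fit with no filter was -1.19.

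**Figure D3:**
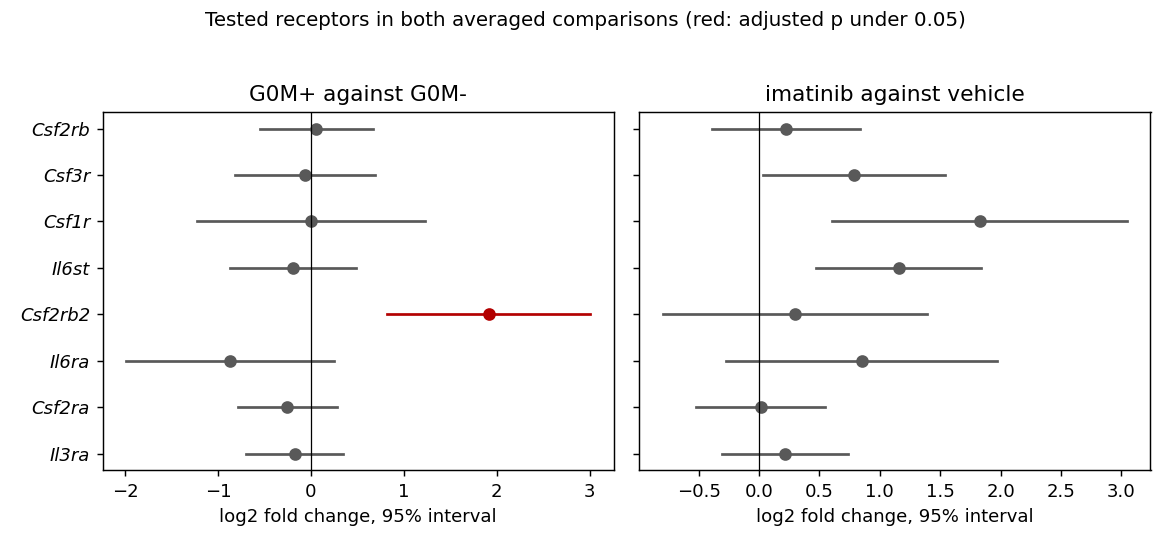
Log2 fold change (x axis) of the 8 tested receptors (y axis) in G0M+ against G0M- cells, averaged over treatments, and under imatinib against vehicle, averaged over populations. Points are limma estimates, lines 95% intervals, and red marks an adjusted p under 0.05. Csf2rb2 on the left, at 1.91, is the only red point, and on the right the estimates run from 0.01 to 1.83, without Epor, which was not tested.

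Il6ra (chr3:89864059-89913196, minus strand), which binds IL-6, was lower in G0M+ cells once neighbouring libraries were compared. Its RNA was at 1.85, 0.397 and 1.62 RPKM in DP and 2.73, 2.13 and 0.484 in SP libraries, and at 1.83, 0.637 and 2.39 in IMDP and 3.86, 1.88 and 7.53 in IMSP libraries. The group ranges overlapped, and without a block the population average was -0.87 (SE 0.51, adjusted p = 0.219) and IMDP against IMSP -1.36 (SE 0.73, adjusted p = 0.185). Libraries with neighbouring numbers, which always hold 1 G0M+ and 1 G0M- sample, deviated from their group means together across genes, with correlations of 0.43 to 0.65.

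With these pairs as a block, the same Il6ra differences had adjusted p of 0.00113 for the average and 0.000824 in imatinib-treated mice. Leaving out the pair of IMSP replicate 3, they were -0.80 (adjusted p = 0.00671) and -1.23 (adjusted p = 0.00928), and without a block and without IMSP replicate 3 they were -0.63 (adjusted p = 0.398) and -0.87 (adjusted p = 0.445). DP against SP stayed at -0.38, without a call, and the treatment average was 0.85 (adjusted p = 0.408, without a block). The block was fitted on unscaled libraries only, and it raised the share of all genes called to 46.9% for the average, 44.1% for IMDP against IMSP and 9.73% for DP against SP. It called 2 members for the average (Csf2rb2 and Il6ra), 1 for IMDP against IMSP (Il6ra) and 1 for DP against SP (Csf2rb2, adjusted p = 0.0142), counts to be read against those shares.

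In 6 of 6 pairs the G0M+ library had less Il6ra, at 0.475, 0.340 and 0.318 times its neighbour in imatinib-treated and 0.593, 0.870 and 0.821 times in vehicle-treated mice. The same was found in 24.9% of tested genes. Csf2rb2 was higher in the G0M+ library in 5 of 6 pairs, the exception being the pair with IMSP replicate 3. A gene that was higher in all 6 pairs was found among 11.3% of tested genes. The monocyte marker sum was also lower in the G0M+ library in 6 of 6 pairs, as was the neutrophil marker sum, and across the 12 libraries Il6ra correlated with the monocyte sum at r = 0.90, as a description. The part of monocyte-lineage cells in the Il6ra difference was not tested. No other member had a correlation as high with that sum, Csf2ra being next (r = 0.73). The sum is unweighted and in several libraries is mostly Ly6c2. Ly6c2 made 65.8 of 77.8 RPKM in DP replicate 1 and 104 of 139 in IMSP replicate 1, but 1.15 of 8.47 in IMDP replicate 2. With Ms4a6c, another of the markers, Il6st correlated at r = 0.92, so a low r with the sum does not describe each marker.

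**Figure D4:**
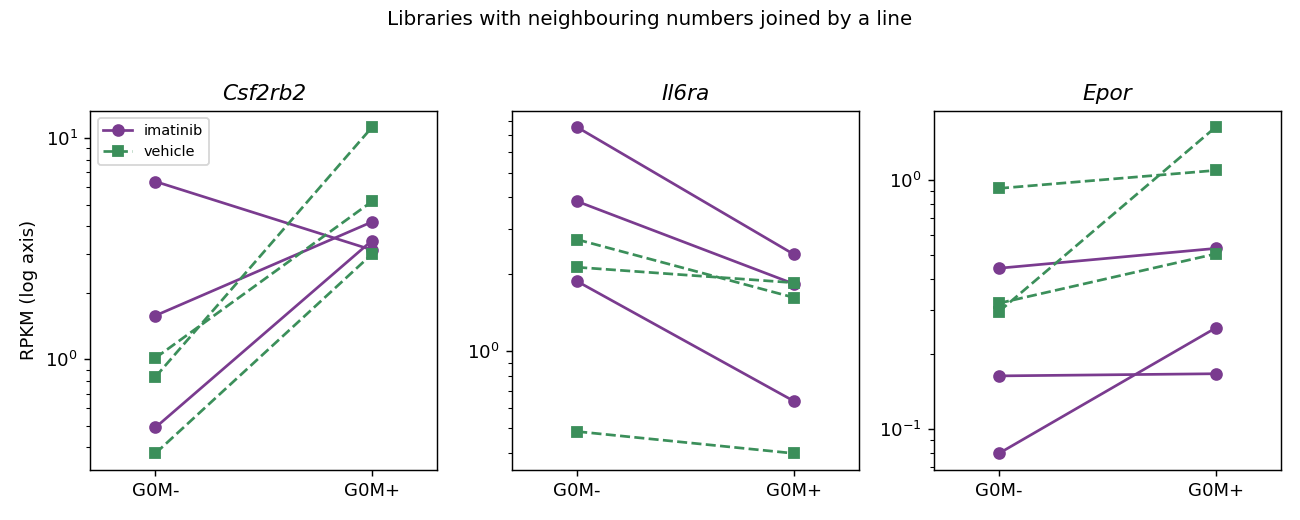
RPKM (log axis) of Csf2rb2, Il6ra and Epor in G0M- and G0M+ libraries (x axis), with a line joining each of the 6 pairs of neighbouring library numbers, in purple for imatinib and green dashes for vehicle. Il6ra falls along all 6 lines, Epor rises along all 6, and Csf2rb2 rises along 5.

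**Figure D5:**
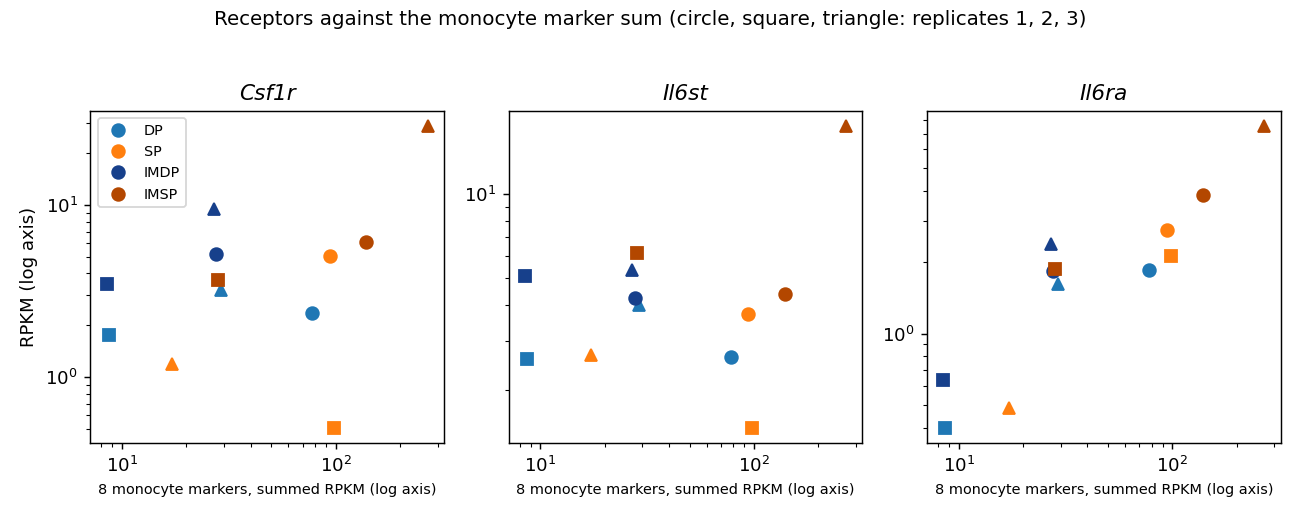
RPKM of Csf1r, Il6st and Il6ra (y axis, log) against the summed RPKM of 8 monocyte markers (x axis, log), 1 point per library with colour for group and shape for replicate. IMSP replicate 3 is the highest point in each panel, and Il6ra lies closest to a line (r = 0.90, against 0.38 for Csf1r and 0.28 for Il6st). Ly6c2 makes up most of the marker sum in several libraries.

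Epor (chr9:21958897-21963506, minus strand), the erythropoietin receptor, was the lowest member and was described without a main test. It was at 1.62, 0.503 and 1.09 RPKM in DP, 0.922, 0.295 and 0.319 in SP, 0.166, 0.529 and 0.254 in IMDP, and 0.163, 0.441 and 0.0796 in IMSP libraries. These values rest on 3 to 71 reads. Only DP replicates 1 and 3 passed 1 RPKM. The G0M+ library was the higher in 6 of 6 pairs, as in 11.3% of tested genes, though in 1 pair by 0.166 to 0.163 RPKM. In a fit with no filter on low values the treatment average was -1.19 (SE 0.41, unadjusted p = 0.0145, adjusted p = 0.215). The sums of 12 erythroid and of 8 megakaryocyte markers correlated with Epor at r = 0.51 and 0.87 across libraries. These sums were higher in the G0M+ library in 6 and 5 of 6 pairs.

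The genes whose RNA varied most like each member were listed by the correlation of log2 values over 12 libraries, as a description. For Csf2rb2 they were Ifitm6 (r = 0.97), Lgals3 (0.90) and Kdm7a (0.85), and for Csf2rb Cfp (0.88), Rcsd1 (0.87) and Tyrobp (0.86). Il6st was most like Csf1r (0.92), the only member that led another member's list, and Ms4a6c (0.92). Il6ra was most like Fam102b (0.98), Themis2 (0.98) and Snx9 (0.96). For Csf1r, Csf3r, Csf2ra, Il3ra and Epor the leading genes were I830077J02Rik (0.96), B3gnt8 (0.91), Ceacam1 (0.93), Cryzl1 (0.89) and Samd14 (0.91).

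Of 18 listed ligands, 6 passed the filter, and 5 of these were higher in G0M+ cells and none lower in the population average, in which 26.3% of all genes were called, 536 of 10072 of them higher. Clcf1 passed the filter only through its 3 IMDP libraries (1.51 to 1.78 RPKM), and Il6 and Lif mostly through G0M+ libraries. The count of higher ligands is therefore not independent of the filter. Il6, the ligand of Il6ra, was at 12.6, 4.14 and 8.06 RPKM in DP and 0, 0.103 and 1.37 in SP libraries, and at 2.58, 4.07 and 0.207 in IMDP and 0.150, 0.308 and 0 in IMSP. Its population average was 3.71 (adjusted p = 0.0060), and DP against SP was 4.62 (adjusted p = 0.0480, called in 11 of 27 alternative settings). Leukemia inhibitory factor (Lif), oncostatin M (Osm) and Clcf1, all of which signal through Il6st, were higher by 1.59, 0.98 and 1.04, and Flt3l by 1.56. Of these 5, Osm kept its call in 14 of 26 alternative settings and the others in nearly all. The ligand Clcf1 was also higher with imatinib (1.06, adjusted p = 0.0497, called in 7 of 23 alternative settings), a difference on which its passing through IMDP libraries alone bears as well.

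All 11 JAK and STAT genes passed the filter. The kinase most used by these receptors, Jak2, was at 4.85 ± 0.797 RPKM (SD, n = 3) for DP and 3.72 ± 0.709 for SP, and with imatinib at 4.03 ± 0.711 for IMDP and 3.21 ± 1.19 for IMSP, with a population average of 0.37 (adjusted p = 0.131). Jak1 (0.24), Stat3 (0.17), Stat5a (0.10) and Stat5b (0.12) were not called for population either. Stat4 was higher in G0M+ cells (0.61, adjusted p = 0.0380, called in 16 of 26 alternative settings), beside 26.3% of all genes called. Jak3, the partner of Il2rg, was higher with imatinib (0.58, adjusted p = 0.0367, called in 18 of 24), beside 0.854% of all genes called. Jak3 was at 10.6, 10.5 and 12.0 RPKM in DP and 15.1, 16.7 and 16.6 in IMDP libraries.

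Among 31 other cytokine receptors, 19 were tested, of which 4 were higher and 0 lower in G0M+ cells. Of all 10072 tested genes, 26.3% were called there, 536 higher and 2112 lower. With imatinib 1 of the 19 was lower, beside 0.854% of all genes called in either direction. The IL-2 receptor alpha subunit Il2ra was higher in G0M+ cells (1.84, adjusted p = 0.0137) and lower with imatinib (-2.92, adjusted p = 0.0197, called in 20 of 24 alternative settings). It was at 6.72, 3.64 and 3.39 RPKM in DP, 0.637 to 1.02 in SP, 0.0533 to 1.10 in IMDP and 0.0129, 0.0993 and 0.1005 in IMSP libraries. The common gamma subunit Il2rg was higher in G0M+ cells by 0.56 (adjusted p = 0.0118), Il27ra, which pairs with Il6st, by 0.95 and Il12rb1 by 1.13, the last called in 17 of 26 alternative settings. Ifngr2 was lower in IMDP than in IMSP by -0.57 (adjusted p = 0.0486), a call lost under both scalings. The growth factor receptors Kit and Flt3 had treatment averages of 0.50 and 1.63 and population averages of 0.30 and 0.36, none of them called.

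Of 14 adaptor genes, 12 were tested, and in the population average the insulin receptor substrate Irs2 was higher (1.06) and Shc1 lower (-0.55) in G0M+ cells, with both calls kept under both scalings. In IMDP against IMSP, Lyn (-0.53) and Ptpn11 (-0.47) were lower as well, and both calls were lost when libraries were scaled to 1 median or 1 RPKM sum. Of 18 signal inhibitors, 17 were tested and only Ptpn6 was called (-0.24 in the population average), and it turned to 0.01 under the RPKM sum scaling. The calls in both lists are to be read beside the shares of all tested genes called. These were 26.3% in the population average and 25.6% in IMDP against IMSP. The sheddases Adam10 and Adam17, which release receptor ectodomains, were tested without a call.

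Among 15 myeloid and erythroid transcription factors 14 were tested, and in the population average Tal1 was higher (0.55, called in 16 of 26 alternative settings) and Cebpa, which drives the granulocyte and monocyte lines, lower (-1.41, adjusted p = 0.0360) in G0M+ cells. Cebpa was at 11.7, 2.55 and 4.00 RPKM in DP, 8.24, 15.9 and 7.38 in SP, 5.64, 1.22 and 5.04 in IMDP and 17.3, 7.24 and 13.8 in IMSP libraries. Its call was lost under the median scaling (-1.25, adjusted p = 0.0547) and the RPKM sum scaling (-1.17, adjusted p = 0.0579). Cebpb was lower in IMDP than in IMSP (-1.07, adjusted p = 0.0399), also lost under both scalings. Over all tested genes 26.3% were called in the population average and 25.6% in IMDP against IMSP.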

How the data were processed

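RNA of 12 libraries of 100 sorted cells was measured, 3 each of DP, SP, IMDP and IMSP. The authors amplified cDNA with not-so-random primers and a Nextera kit, mapped reads to GRCm38 and deposited 1 RPKM value per feature and library. For this step CLC Genomics Workbench is given in the methods and HISAT2 with featureCounts in the reporting summary, and edgeR is named per the labels. Whether the deposited RPKM were normalized further is not given in the sources used here.

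Numbered copies were summed. RPKM steps gave whole reads (tolerance 0.01) for all 17735 features above 0 of 48737, and 25.9% to 37.1% of each total fell on listed features. PCR copies are not marked, so reads are not independent molecules. The 10072 genes that reached 1 RPKM in 3 or more libraries entered limma 3.58.1 in R 4.3.3 on log2(RPKM + 0.1), which understates the change of low genes, with 4 group means and a mean-variance trend. The p-values are two-sided and Benjamini-Hochberg adjusted, with a threshold of 0.05. Populations were contrasted within each treatment and treatments within each population, followed by both averages and their interaction. Scripts were tested on simulated data.

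The members and lists were chosen with earlier results of these data known. Named beside the members were, per list, up to 5 called genes with the smallest adjusted p, a set of signal parts (Jak1, Jak2, Stat3, Stat5a, Stat5b, Il2rg, Kit and Flt3, with 1 further gene not reported here) and, per member, the genes of highest correlation (for the untested Epor, added later). A summed beta gene, leaving out DP replicate 1 with IMSP replicate 3, and the block of neighbours without the pair of IMSP replicate 3 were alternatives chosen after seeing the data. Same-numbered IMDP and IMSP libraries, which are also neighbours by library number, deviated together (correlations 0.43 to 0.65), and same-numbered DP and SP libraries did not (-0.30 to -0.10), whereas vehicle neighbours by library number did (0.50 to 0.52). The block of neighbouring library numbers was therefore used as the pairing. Figures were drawn with matplotlib 3.10.9. Normal stem cell libraries were not used here.

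The other marker lists gave summed RPKM of 57.9 to 153 in SP, 11.3 to 77.9 in IMSP, 213 to 272 in DP and 59.1 to 489 in IMDP for erythroid, 7.21 to 128 over all libraries for megakaryocyte, 30.0 to 267 for lymphoid and 118 to 229 for sort markers.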

Additional observations from a re-analysis of the deposited data

How the results depend on the processing

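In 24 planned and 3 added alternatives, 1419 of 1433 values of the members kept their direction, or stayed within 1 SE of 0 without a call, and kept their side of the threshold. The other 14, in Csf2rb2, Il6ra and Csf2rb, gained a call and 0 lost one or reversed. Csf2rb2 in DP against SP gained its call with the library-number block, with only the 2 groups in the fit (adjusted p = 0.0472), and without IMSP replicate 1 (adjusted p = 0.0214) or 3. Members called rose from 0 to 1 in DP against SP under these settings and in IMDP against IMSP with the library-number block, and from 1 to 2 in the population average with that block, and fell to 0 there when the 2 beta genes were summed, since Csf2rb2 then has no row of its own. Leaving out DP replicate 1 and IMSP replicate 3 gave 1 in each of DP against SP and IMDP against IMSP. The library-number block without the pair of IMSP replicate 3 gave 2 in DP against SP (Csf2rb2 and Csf2rb), 2 in IMDP against IMSP and 2 in the population average (Csf2rb2 and Il6ra in both). Leaving out 1 library gave 0 to 1 in these 2 comparisons. The replicate block from the sample titles changed no member's call (Csf2rb2 population average 1.91, adjusted p = 0.0279, and Il6st treatment average 1.16, adjusted p = 0.0737).

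Counts of all genes called moved by over 1.5 times as follows. DP against SP, 228 genes, gave 980 with the library-number block, 875 with that block without the pair of IMSP replicate 3, and 125 to 264 without 1 library. IMDP against IMSP, 2581, gave 4446 with that block, 1553 with only the 2 groups, 1587 (647 higher) with libraries scaled to 1 median, 1583 (965 higher) with 1 RPKM sum against 239 higher as deposited, and 902 to 2962 without 1 library. IMDP against DP, 37, gave 14 with 1 RPKM sum (12 higher, against 3 as deposited), 2 with 1 median, 8 by limma-voom, 1 by eBayes without trend, 0 with only the 2 groups, 0 without DP replicate 1 and IMSP replicate 3, and 0 to 189 without 1 library. The population average, 2648, gave 4721 with the library-number block, 4140 with that block without the pair, and 1583 to 3061 without 1 library, and its 536 higher genes became 1131 with 1 median and 1494 with 1 RPKM sum. The treatment average, 86, gave 246 with 1 RPKM sum (180 higher, against 25), 162 with 1 median (66 higher), 46 with no filter, 10 without the 2 libraries named above, and 12 to 143 without 1 library. The interaction, 0, gave 0 to 1. The cause was not tested. Il3ra and Epor rest on at most 71 reads a library.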
